A study of Drosophila melanogaster with 3 samples.

Results

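The nuclear genes for subunits of oxidative phosphorylation were examined as a set. Members were the protein-coding genes on 2L, 2R, 3L, 3R, 4 and X whose symbol starts with ND- (complex I), Sdh (complex II), UQCR (complex III), COX (complex IV) or ATPsyn (complex V). The rule gave 88 of 13945 coding genes, with 40 in complex I, 8 in complex II, 9 in complex III, 16 in complex IV and 15 in complex V. The symbol prefix also takes in Sdhaf3, an assembly factor of complex II and not a subunit. Also taken in are 24 members whose symbol marks them as a copy by an L after the base name. Genes with other names are left out, such as blw, the alpha subunit of ATP synthase, so the counts by complex do not cover whole complexes. The data are ChIP-seq peak lists for Lpt, made with an antibody against GFP from whole white prepupae of Drosophila melanogaster, at the onset of metamorphosis. The animals came from a transgenic line in which Lpt carries GFP at its C terminus, males and females were pooled, and the age is given as unknown. Chromatin was sonicated to a size range of 200 to 800 bp. The 3 biological replicates form 1 group, with no control analysed here. In whole animals, a site bound in fewer cells and a site bound less often in each cell cannot be told apart.

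Oxidative phosphorylation takes place in the inner mitochondrial membrane. Complex I accepts electrons from NADH and complex II from succinate, complex III passes them through cytochrome c to complex IV, which reduces oxygen, and the proton gradient built by complexes I, III and IV drives the ATP synthase, complex V. All subunits of complex II and most of those of the other complexes are encoded in the nucleus, and several subunits of the fly have gene copies that are expressed mainly in testis. Lpt is the fly counterpart of the N-terminal part of mammalian KMT2C and KMT2D and acts with the histone methyltransferase Trr in a complex that places monomethylation on lysine 4 of histone H3. That complex is also a coactivator of the ecdysone receptor.

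A promoter summit was a peak summit no more than 1000 bp from a transcription start site (TSS) of the gene in the annotation. Summits were taken from the list that passed the irreproducible discovery rate (IDR) step, a filter for peaks with similar ranks in the replicates, which left 6110 peaks. Of the 88 members, 13 had such a summit. Of these summits, 5 are shown here as 201 bp of the release 6 (dm6) RefSeq genome centred on the summit, because they stand for the positions described further on. The summits of ND-ASHI, ND-42 and SdhC lay between the start of the member and that of a gene on the other strand, the summit of COX5A lay beside the start of glo, and that of COX7AL2 lay in an intron of the member. Capitals mark matches, on either strand, to the word of the DNA replication-related element (DRE, TATCGATA), the NRG element of mitochondrial genes (TTATATAA in these windows), the TATA box (TATAAA) or the initiator (TCAGT).
ND-ASHI, chrX:6679278-6679478, plus strand: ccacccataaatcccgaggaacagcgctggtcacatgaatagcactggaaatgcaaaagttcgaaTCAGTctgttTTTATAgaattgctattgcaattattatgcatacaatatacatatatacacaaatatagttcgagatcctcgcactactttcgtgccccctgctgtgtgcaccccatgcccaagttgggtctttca
COX7AL2, chr2L:2193552-2193752, plus strand: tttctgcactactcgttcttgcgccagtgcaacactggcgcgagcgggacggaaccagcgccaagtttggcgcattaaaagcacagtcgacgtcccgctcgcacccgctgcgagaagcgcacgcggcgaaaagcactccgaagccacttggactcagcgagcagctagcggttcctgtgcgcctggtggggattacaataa
ND-42, chr3R:22027418-22027618, plus strand: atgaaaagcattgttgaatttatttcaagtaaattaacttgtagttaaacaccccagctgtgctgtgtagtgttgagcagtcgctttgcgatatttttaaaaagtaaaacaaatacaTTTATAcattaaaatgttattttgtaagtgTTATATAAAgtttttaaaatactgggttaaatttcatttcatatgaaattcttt
COX5A, chr3R:11819358-11819558, plus strand: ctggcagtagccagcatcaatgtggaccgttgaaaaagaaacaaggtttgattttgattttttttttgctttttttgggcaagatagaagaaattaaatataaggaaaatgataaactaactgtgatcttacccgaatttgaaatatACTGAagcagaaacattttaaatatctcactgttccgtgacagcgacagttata
SdhC, chr3R:11210014-11210214, plus strand: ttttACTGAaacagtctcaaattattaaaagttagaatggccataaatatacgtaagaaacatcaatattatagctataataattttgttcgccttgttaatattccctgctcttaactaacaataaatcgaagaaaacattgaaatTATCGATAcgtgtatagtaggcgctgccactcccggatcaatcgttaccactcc
The ND-ASHI window held TATA box and initiator words, ND-42 held an NRG word that overlaps a TATA box word and a further TATA box word, COX5A held an initiator word, and SdhC held DRE and initiator words. The COX7AL2 window held none of the words searched and is in lower case throughout. A match is given as a description of the letters only.

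Promoter summits were found at 13 of 88 members (14.8%, exact 95% binomial interval 8.11 to 23.9%) and at 2669 of 13857 other coding genes (19.3%, 18.6 to 19.9%). Among the 6110 strongest peaks of each replicate list, 14, 11 and 14 members had a summit in replicates 1, 2 and 3 (14.8% ± 1.97, SD, n = 3), against 19.4% ± 0.225 of the other coding genes. The members' share was below that of the other coding genes in each replicate, but its binomial interval included 19.3%. With the limit at 500 bp, 8 members and 16.0% of the other coding genes had a summit. These intervals cover counting error over genes only, and neighbouring genes can share a summit.

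Members are short genes, with a median length of 1097 bp against 2178 bp for the other coding genes, and in both sets the share with a summit was higher where more TSSs are annotated. With 1 annotated TSS, 4 of 53 members (7.55%) and 13.2% of the other coding genes had a summit. With 2 TSSs, 7 of 30 members (23.3%) and 28.9% of the other coding genes had one, and with 3 TSSs the counts were 2 of 5 members and 45.9% of the other coding genes. The members' share was lower in each of these classes. Among genes under 2000 bp the order was the other way round, with 10 of 70 members (14.3%) and 10.3% of the other coding genes. The share of members relative to other genes therefore turned with the genes they were set against. The members with a summit were also counted by arm, beside the share of other coding genes there. The count was 5 of 20 beside 20.0% on 3R, 4 of 13 beside 20.6% on X and 2 of 17 beside 18.2% on 2R. On 2L it was 1 of 16 beside 17.2%, on 3L 1 of 20 beside 20.8%, and on 4 it was 0 of 2 beside 6.41%.

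Complex I, the NADH dehydrogenase, had promoter summits at 7 of 40 genes (17.5%, 7.34 to 32.8%), and in the replicates at 8, 6 and 8 genes. Complex II had summits at 2 of 8 genes (3.19 to 65.1%), and complex III, the cytochrome bc1 complex, at 0 of 9 genes (0 to 33.6%). In complex IV the count was 2 of 16 (1.55 to 38.3%) and in complex V 2 of 15 (1.66 to 40.5%). Among the strongest peaks of replicates 1, 2 and 3, complex II had 1, 1 and 1 genes with a summit, complex III 0, 0 and 0, complex IV 2, 2 and 3, and complex V 3, 2 and 2. Without replicate 1 or without replicate 2, complex II kept 1 gene with a summit. Complex III was the one complex with no count in any replicate. The intervals of all 5 complexes overlapped, and each included the 19.3% of other coding genes. Complex III genes also had the shortest median length, 701 bp, against 873.5 to 1332.5 bp in the other complexes.

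**Figure D1:**
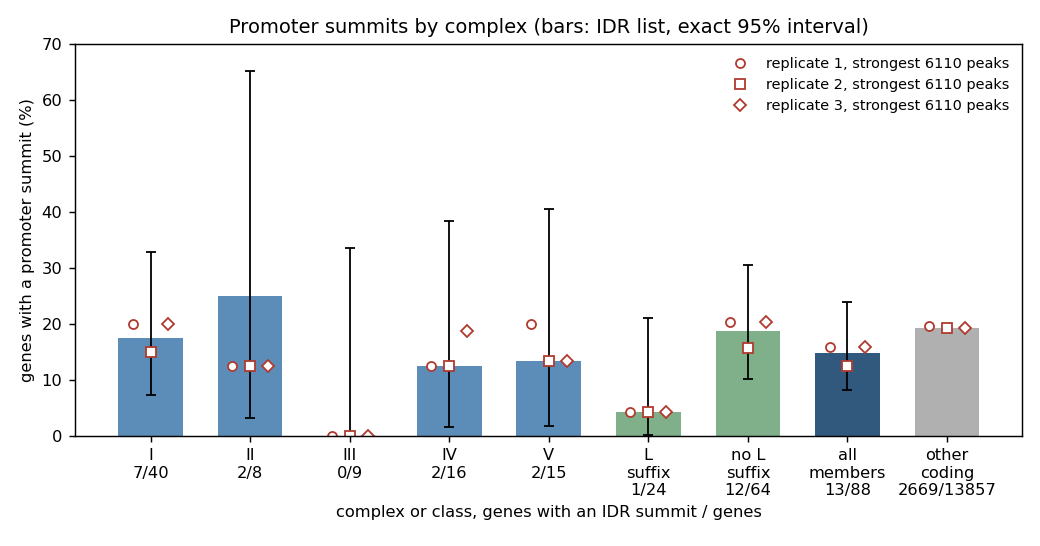
Share of genes with a promoter summit, in percent, for the genes of complexes I to V, for members with and without the L suffix, for all members and for the other coding genes. Bars give the IDR list with exact 95% binomial intervals, and points give the strongest 6110 peaks of each replicate; complex III is at 0 throughout and L-suffix members stand at 4.17% in the IDR list.

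Among the 24 L-suffix members, 1 had a promoter summit (4.17%, 0.105 to 21.1%), as against 12 of the 64 without the suffix (18.8%, 10.1 to 30.5%). The L-suffix members had 1, 1 and 1 genes with a summit in the replicates, against 13, 10 and 13 of the members without the suffix. The L-suffix gene with the summit was COX7AL2, which belongs to the family of subunit 7A of complex IV. Of the L-suffix members, 14 had no peak of any replicate list within 1000 bp of a TSS, and so did 14 of the 64 without the suffix. For 20 of the L-suffix members the gene with the base symbol is also a member: the copy was in more replicate lists in 4 pairs, the base gene in 13, and both in the same number in 3. SdhC, SdhA, ND-24 and ATPsynCF6 had a summit while their copies SdhCL, SdhAL, ND-24L and ATPsynCF6L had none, and COX7AL2 had a summit while COX7A had none. A divergent partner, defined further on, was present at 4 of the 24 L-suffix members and at 40 of the 64 without the suffix, so the suffix and the gene arrangement move together, and their separate parts in the count were not tested.

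Each replicate list also holds weaker peaks, with 30000, 30000 and 27893 peaks in all. A peak of all 3 replicate lists lay within 1000 bp of a TSS at 19 of 88 members (21.6%) and at 33.4% of the other coding genes. No peak of any list was there at 28 members (31.8%) and at 38.2% of the other coding genes. When only the 6110 strongest peaks of each list were used, 11 members (12.5%) and 12.9% of the other coding genes had one in all 3 replicates. The shares were thus close for the strongest peaks. With weaker peaks let in, the share with a peak of all 3 lists was lower for members. The share with no peak of any list was lower for members too. Among genes under 2000 bp, 20.0% of members and 19.2% of the other coding genes had a peak of all 3 lists.

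**Figure D2:**
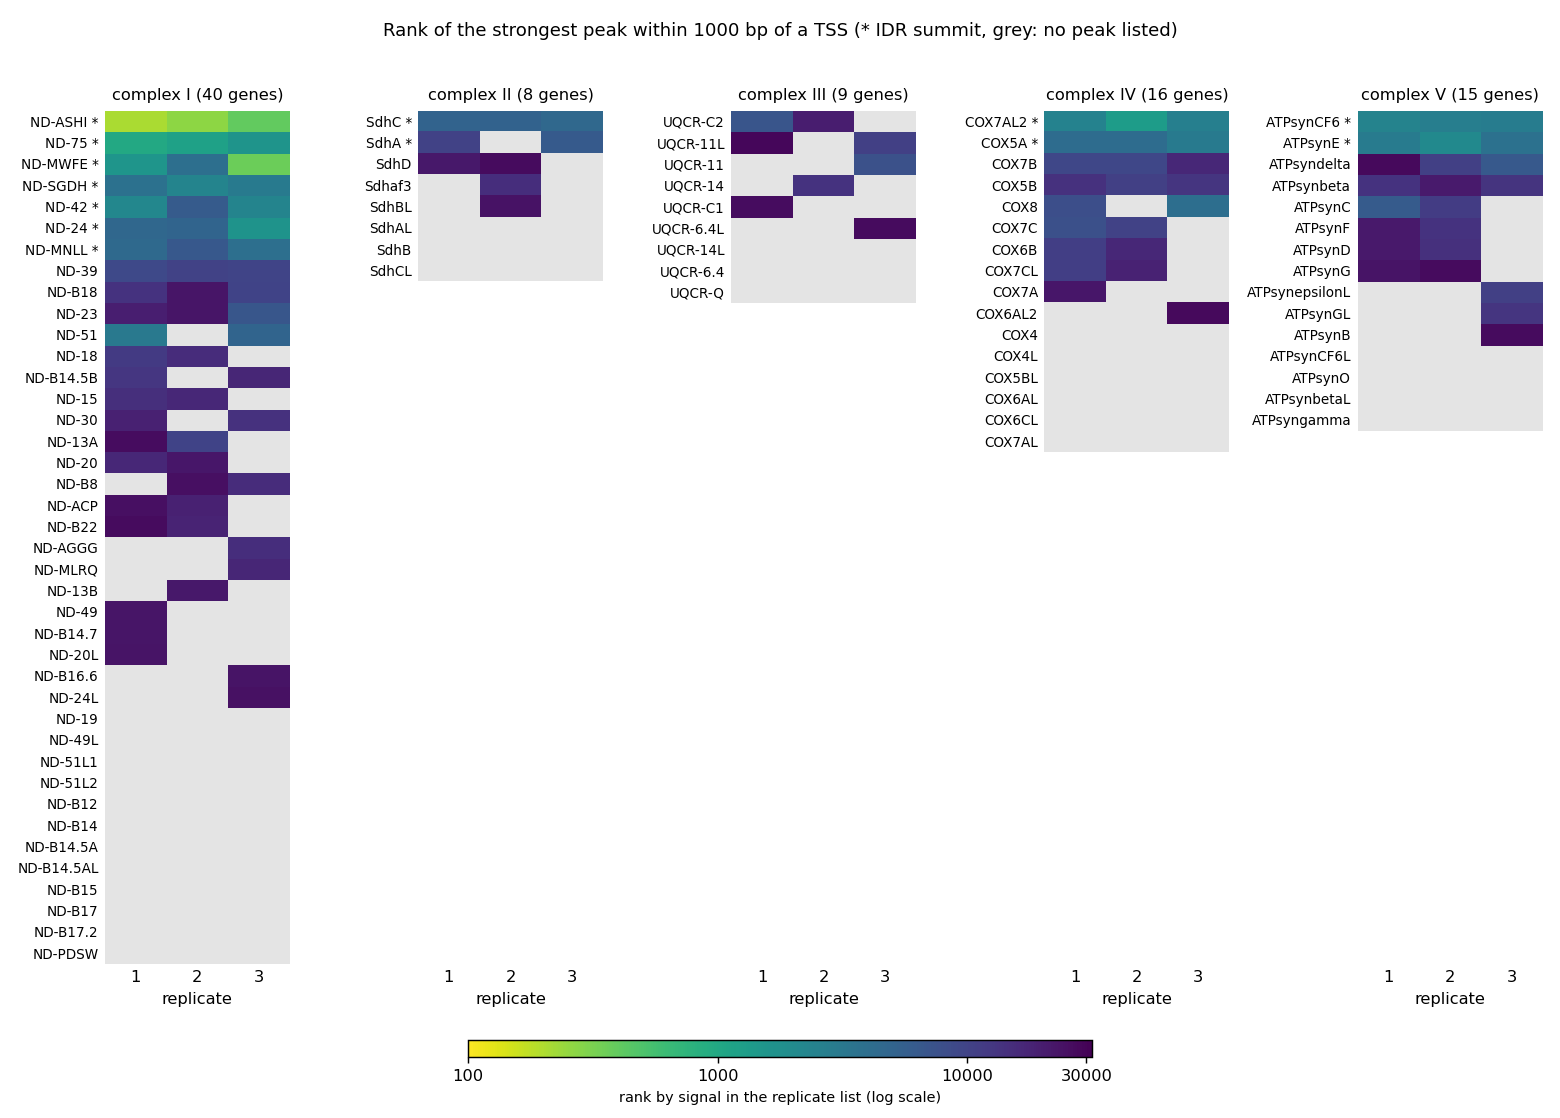
Rank by signal, on a log colour scale, of the strongest peak within 1000 bp of a TSS of each of the 88 members in replicates 1, 2 and 3, by complex. Grey marks no listed peak and an asterisk an IDR promoter summit; the strongest member peak was that of ND-ASHI in replicates 1 and 2, at ranks 206 and 266, and that of ND-MWFE in replicate 3, at rank 363, ahead of ND-ASHI at rank 396, and most UQCR genes and L-suffix genes are grey in 2 or 3 replicates.

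Of the 75 members without a promoter summit, 7 had a peak in all 3 replicate lists, none of them among the strongest of all 3. These were ND-23, ND-39, ND-B18, COX5B, COX7B, ATPsynbeta and ATPsyndelta. The matching share of other coding genes without a promoter summit is not given here, so the 7 are named as a description only. ND-39, a complex I subunit, had peaks at ranks 8797, 10265 and 9643 in replicates 1, 2 and 3, all 3 below the strongest 6110. ATPsynbeta, the catalytic subunit of ATP synthase, had peaks at ranks 13535, 20935 and 13171. In single replicates, 3 members without a summit reached the strongest 6110 peaks. ND-51, which carries the NADH binding site, did so at rank 3111 in replicate 1 and 4913 in replicate 3 and had no listed peak in replicate 2. COX8 did so at rank 3952 in replicate 3 and ATPsynC, the ring-forming subunit, at rank 6105 in replicate 1. UQCR-C2, a core protein of complex III, had ranks 6901 and 20074 in replicates 1 and 2 and no listed peak in replicate 3.

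The distance from a member's TSSs to its nearest IDR summit ranged widely. Just inside the limit of 1000 bp were ATPsynE at 833 bp, ND-MNLL at 840 bp and SdhA at 988 bp. Just outside it were ND-39 at 1532 bp, ATPsyndelta at 1649 bp and ND-B22 at 1921 bp. Of the members without a promoter summit, 6 had one at 1000 to 2000 bp, 25 at 2000 to 5000 bp and 44 beyond 5000 bp, of which 29 were beyond 10000 bp. No member therefore lay between 988 and 1532 bp.

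The strongest summit at any member in the IDR list was that of ND-ASHI, a supernumerary subunit of complex I (X, 6677262 to 6679118, minus strand), at rank 256 of 6110. Its peak signal in the list of each replicate was 185, 230 and 142 in replicates 1, 2 and 3 (186 ± 44.0, SD, n = 3), at ranks 206, 266 and 396. All 3 replicates placed it among their strongest peaks. The summit lay 260 bp upstream of the nearest TSS of ND-ASHI and 262 bp from that of Fum1, which encodes fumarase of the tricarboxylic acid cycle and is transcribed the other way. The replicate summits lay 262, 259 and 238 bp upstream of ND-ASHI, and the nearer gene was Fum1 in replicate 1 and ND-ASHI in replicates 2 and 3.

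Other complex I summits lay nearer to a neighbouring gene. ND-MWFE, an accessory subunit, had a summit at rank 1151 that was 178 bp from its own TSS and 43 bp from that of TppII, a tripeptidyl peptidase. Its signal was 77.4, 66.6 and 147 in replicates 1, 2 and 3, highest in replicate 3, and the nearest gene was TppII in all 3. ND-75, the largest subunit, had a summit at rank 1187 that was 776 bp upstream of its TSS and 207 bp from that of CG1632, with signals of 98.2, 123 and 71.2. For ND-42, an accessory subunit, the summit at rank 2854 was 191 bp upstream of its own TSS and 38 bp from that of Cchl, the lyase that attaches heme to cytochrome c. ND-42 had signals of 66.0, 50.2 and 56.3 in the replicates, with Cchl nearest in all 3.

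ND-SGDH had a pair of IDR summits. The stronger, at rank 2403, lay 869 bp upstream in an intron of RhoGAP68F, whose nearest TSS was 501 bp away, and the weaker, at rank 4395, lay 58 bp upstream of ND-SGDH itself. A replicate peak overlapped the stronger one with signals of 44.4 and 87.9 in replicates 1 and 2, and none did in replicate 3. ND-24, an iron-sulfur subunit of the electron input module, had a summit at rank 2922 that was 113 bp from its own TSS and 161 bp from that of corolla, a synaptonemal complex gene. Its signals were 42.6, 57.4 and 70.7, and ND-24 was the nearest gene in all 3 replicates. ND-MNLL had the weakest complex I summit, at rank 4465, lying 840 bp downstream of a TSS, beyond the end of the gene, at the same distance from CG45089.

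In complex II, SdhC encodes a membrane anchor of succinate dehydrogenase and SdhA its flavoprotein. The SdhC summit, at rank 4224, lay 265 bp upstream of its TSS and 133 bp from that of Tctp, a gene for a growth-related protein. The nearest gene to the replicate peak was SdhC in replicate 1 and Tctp in replicates 2 and 3, with signals of 40.4, 55.8 and 37.0. The SdhA summit, at rank 4673, lay 988 bp upstream and 187 bp from the TSS of cer. In replicates 1, 2 and 3 the SdhA peak summit lay 1008, 1005 and 962 bp away, at ranks 3177, 6055 and 6134, so that this gene entered none of the replicate counts above.

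In complex IV, COX5A had a summit at rank 3017 that was 99 bp downstream of a TSS and 38 bp from that of glo, which encodes an RNA-binding protein. Its signals were 45.8, 63.2 and 47.9 (52.3 ± 9.50, SD, n = 3), and glo was the nearest gene in all 3 replicates. COX7AL2 (2L, 2192525 to 2197912, minus strand) had summits at rank 1682, 642 bp upstream of an internal TSS, and at rank 3553, 789 bp downstream of its first TSS. No other coding TSS lay within 1000 bp of the stronger of them, and COX7AL2 was the nearest gene in all 3 replicates, with signals of 61.7, 118 and 52.4. With a length of 5388 bp it was the longest of the 13 genes.

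In complex V, ATPsynCF6 encodes coupling factor 6 and ATPsynE a small membrane subunit. ATPsynCF6 had summits at rank 2147, 989 bp upstream, and at rank 3233, 188 bp upstream. Both lay nearer to Sec13, a gene for a coat protein of vesicles and nuclear pores, at 490 and 26 bp. The ATPsynE summit, at rank 2328, lay 833 bp downstream of a TSS, past the end of the gene, and nearer to the TSS of another coding gene. The nearest gene was Sec13 in all 3 replicates for the stronger ATPsynCF6 summit, and in none of the replicates was ATPsynE nearest to its own.

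**Figure D3:**
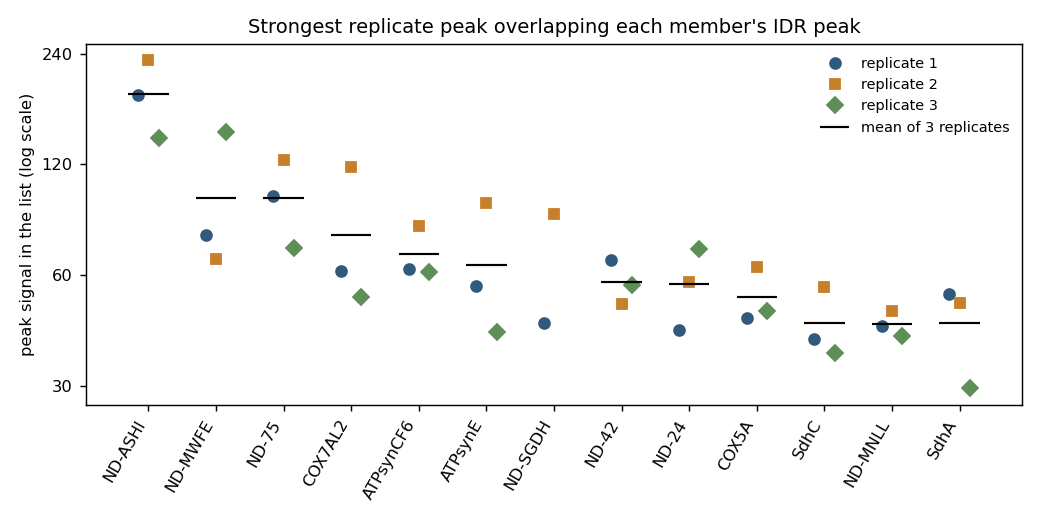
Peak signal, on a log axis, of the strongest peak of replicates 1, 2 and 3 that overlaps the strongest IDR peak of each of the 13 members, in the order of IDR rank from left to right; lines give the mean where all 3 replicates have a peak. ND-ASHI had the highest mean, 186, and ND-SGDH had no overlapping peak in replicate 3.

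The IDR ranks of the 13 members centred where those of other genes did. Their median rank was 2403, against 2453 for the other coding genes with a promoter summit. Of the 13, 1 was among the 611 strongest peaks of the list (7.69%), against 16.8% of the other coding genes with a promoter summit. The signal was highest in replicate 2 for 8 of the 12 members with an overlapping peak in all 3 lists, and the lists differ in scale, with a median signal of 18.5, 25.0 and 16.7 in replicates 1, 2 and 3. The overlapping replicate peak was among the strongest 6110 of all 3 replicates for all but ND-SGDH, ND-MNLL and SdhA.

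For most members the summit was closer to the start of a different gene. The strongest summit was nearest to the member's own TSS at ND-ASHI, ND-24 and COX7AL2 and equally near at ND-MNLL, and nearer to another coding gene's TSS at the other 9. Counting any summit within 1000 bp adds ND-SGDH, which gave 5 of 88 members (5.68%), against 15.0% of the other coding genes. Of the members with a promoter summit this was 38.5% (13.9 to 68.4%), against 77.8% (76.2 to 79.3%) of the other coding genes with one. In replicates 1, 2 and 3 it was 42.9, 27.3 and 50.0% of the members with a summit (40.1% ± 11.6, SD, n = 3), against 77.3, 78.7 and 75.7% of the other coding genes (77.2% ± 1.5). The members' values lay below those of the other coding genes in every replicate, with no overlap. The count of 5 members was 3 without replicate 1 or without replicate 3, as ND-SGDH and ND-MNLL then no longer counted. The distances overlapped between replicates of the sets. The median from the strongest summit to the member's TSS was 642 bp in the IDR list, against 206 bp for other coding genes, but 240.5, 259 and 207 bp in the replicates, against 204.5, 202 and 220 bp.

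**Figure D4:**
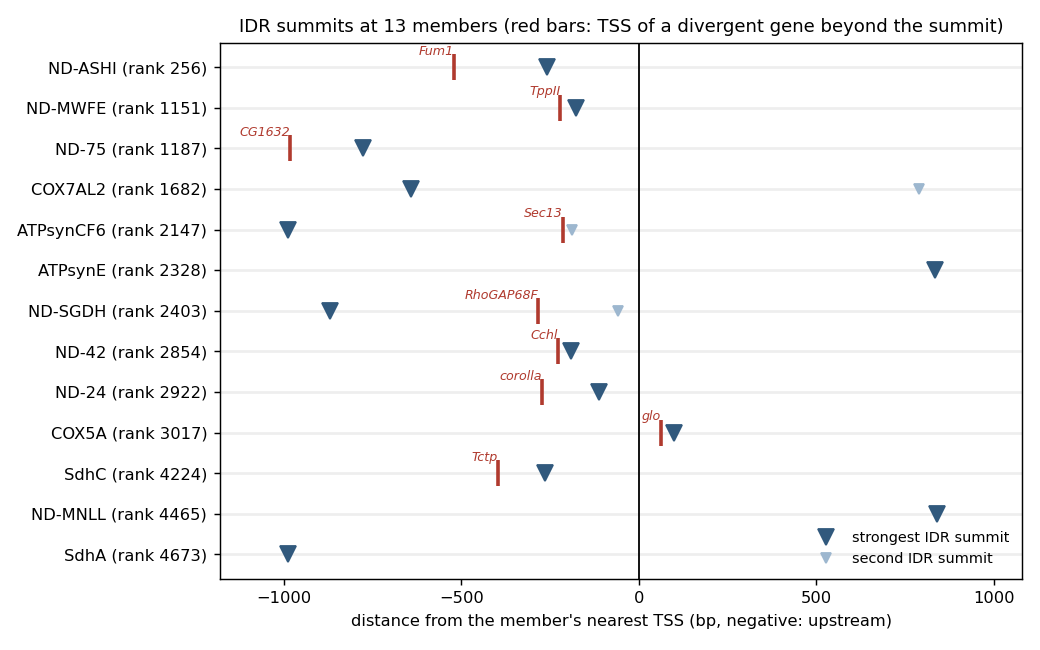
Distance in bp of each IDR summit from the nearest TSS of the member, set at 0 with upstream negative, for the 13 members from the strongest (top) to the weakest (bottom). Large triangles mark the strongest and small ones the second summit, and red bars mark the TSS of a divergent gene where the summit lies between a TSS of the member and it; 9 members have such a summit.

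A divergent partner was a coding gene on the other strand, transcribed away from the member, with its TSS within 1000 bp. Such a partner was present at 44 of 88 members (50.0%) and at 36.1% of the other coding genes. Members with a partner had a promoter summit in 11 of 44 cases (25.0%, 13.2 to 40.3%), and members without one in 2 of 44 (4.55%, 0.555 to 15.5%). The other coding genes had one in 1399 of 5008 cases with a partner (27.9%) and in 1270 of 8849 without (14.4%). In replicates 1, 2 and 3, 12, 10 and 13 members with a partner had a summit, against 2, 1 and 1 members without one. Thus the share at members with a partner was near that at other such genes. At members without a partner it was lower than at other such genes in the IDR list and in each replicate. The interval for the members without a partner included 14.4%, however. Their median length was 1008.5 bp, against 2091 bp for other genes without a partner, and most L-suffix members are among them. Neither length nor the suffix was held equal in this comparison. The members without a partner that had a summit were SdhA and COX7AL2. Among the 11 with a partner, ND-MNLL and ATPsynE had the summit past the end of the gene. It lay 1310 and 1212 bp from the TSS of the partner, which had no promoter summit in either case.

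**Figure D5:**
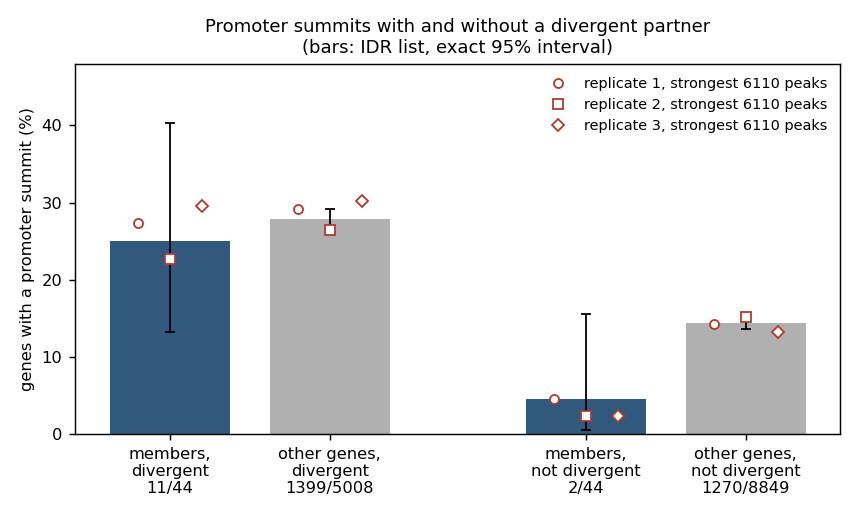
Share of genes with a promoter summit, in percent, for members and other coding genes with a divergent partner (left pair) and without one (right pair). Bars give the IDR list with exact 95% binomial intervals and points the strongest 6110 peaks of each replicate; the bars stand at 25.0 and 27.9% on the left and at 4.55 and 14.4% on the right.

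Of the members with a promoter summit, 84.6% had a divergent partner in the IDR list and 89.8% ± 3.72 in the replicates (SD, n = 3), against 52.4% and 53.2% ± 3.52 of the other coding genes with a summit. At 9 members a summit lay between the divergent starts, and the partners were Fum1, TppII, CG1632, RhoGAP68F, Cchl, corolla, Tctp, glo and Sec13. The share of other coding genes with a summit so placed is not given here, so this count is a description only. By function, Fum1 and Cchl also act in mitochondria, while TppII, corolla, glo and Sec13 have roles elsewhere in the cell. Another 33 members had a divergent partner and no promoter summit of their own, and at 4 of them the partner had one. These 4 pairs were ND-13A with Msp300, ND-39 with ZnT77C, ND-B16.6 with kdn, the citrate synthase gene, and ATPsyndelta with Ypel.

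The share of summits with the member's own TSS as the nearest was also read against genes of the same arrangement and size, a class chosen after its values were seen. Among genes under 2000 bp with a divergent partner, it was 40.0% of the 10 members with a promoter summit and 44.1% of the 435 other coding genes with one. Of other coding genes with a partner and any length it was 60.3%, and of those without a partner 97.1%. The 97.1% is partly set by the definition, as these genes have no opposite start within 1000 bp upstream. Among short divergent genes the shares were close, but that of members rests on 4 of 10 genes. This class is too small to show whether the gap to other coding genes is absent there, and what sets the gap was not tested. In that class 10 of 34 members (29.4%, 15.1 to 47.5%) and 20.0% of the other coding genes had a promoter summit. Among the 73 genes for mitochondrial ribosomal proteins, which also serve the production of these complexes, 23 (31.5%, 21.1 to 43.4%) had a promoter summit, and 26.1% of those had the gene's own TSS as the nearest. Among the 92 genes for cytoplasmic ribosomal proteins the count was also 23 (25.0%), and 82.6% of those had the gene's own TSS as the nearest.

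Promoters were searched on both strands from 250 bp before to 50 bp after the outermost TSS of each gene for words of known elements. Further TSSs were not searched. At COX7AL2, ND-24, ND-MNLL and ATPsynE such a TSS was the gene's own TSS nearest to the strongest summit. The core of motif 1 (GGTCACAC), a core promoter element of constitutively expressed fly genes, was in the promoters of 16 of 88 members (18.2%) and of 7.64% of other coding genes. It was found in 1 of the 24 L-suffix members and in 15 of the 64 without the suffix (23.4%). It was in 15.4% of the members with a promoter summit (2 of 13) and in 18.7% of those without one. The DRE word was in 10.2% of member promoters and 9.35% of the others. The GAGA word (GAGAGAG) was in 1 member promoter (1.14%) and in 5.9% of the others, and in none of the 16 windows around member summits, against 11.0% of windows around other promoter summits. The initiator word (TCAGT) was in 36.4% of member promoters and 51.6% of the others, and the TATA box word (TATAAA) in 55.7% and 45.7%. Among genes with a promoter summit the order of the initiator word was the other way round, with 8 of 13 members (61.5%) and 49.6% of the other coding genes. Member promoters also had a lower GC content, 35.0% against 39.1% for other coding genes, and the windows at member summits had 33.9% against 38.8% at other promoter summits. The NRG words (TTACATAA, TTACGTAA, TTATATAA and TTATGTAA) were in 6.82% of member promoters and 5.17% of the others. They were in 3 of 13 members with a promoter summit (23.1%) and in 4.0% of members without one, and in 5.43% of the other coding genes with a summit. In member promoters and those of other coding genes, the E-box word (CACGTG) was in 4.55% and 4.2%, and the Ewg word (GCGCATGC) in none and 1.05%. In the summit windows, the DRE word was in 1 of 16 at members and in 2.13% at other promoter summits, NRG words in 2 of 16 and 4.02%, and the TATA box word in 8 of 16 and 30.4%. How far base composition sets these word counts was not tested.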

How the data were processed

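ChIP-seq peak lists were used from the 3 replicates, which form 1 group. The authors deposited, for each replicate, a list of peaks and background regions that entered the IDR procedure, the same kind of list for the pooled replicates, and 1 list that passed it. The pooled list was used as an alternative only. The aligner is not given in the sources used here, nor are the peak caller and the IDR threshold. The deposited signal of a peak is the authors' own enrichment value within a list and was used to rank or describe peaks, so SDs over replicates include differences in scale between lists. Depth in reads is unknown. The dm6 lists were read and the dm3 lists left out. Positions are 1-based.

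Summits were joined to the TSSs of Ensembl release 115 with Python 3.11.15 and pandas 2.3.3. For values per replicate, the 6110 peaks of highest signal in each list were taken, as many as the IDR list holds. A replicate peak overlapped an IDR peak if they shared at least 1 bp. Intervals are Clopper-Pearson (scipy 1.17.1). The joining step was tested on simulated summits. No test between gene sets was run: shares are given beside those of all other coding genes. The genes named are all 13 members with a promoter summit, the members without one that had peaks in all 3 lists or among the strongest of any, and those beside the distance limit; UQCR-C2 was named after its values were seen. Members, lists and classes were chosen with earlier results of these data known.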

Additional observations from a re-analysis of the deposited data

How the results depend on the processing

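The 13 members with a promoter summit became 8 at a limit of 500 bp, with complexes II, IV and V at 1 each, L-suffix members at 0 and members with their own TSS nearest at 3, beside 16.0% of other coding genes. At 2000 bp 19 of 88 members had one, beside 24.7% of other coding genes, and complex V had 4. In the upper part of the IDR list the count was 10 of 88 members, beside 11.5% of other coding genes. There complex II had 0 and own TSS nearest held for 3. With peaks among the strongest of all 3 replicates, 10 of 88 members had one, beside 12.5% of other coding genes. Complex II then had 1 and own TSS nearest held for 3. Leaving out 1 replicate gave 10 to 12 members, beside 13.2 to 14.8% of other coding genes. Complex II counts were then 1 to 2 and own-TSS counts 3 to 5. If a summit counted only for the nearest coding TSS, 5 members remained, with 4 in complex I, 0 in II, 1 in IV, 0 in V, 4 without the L suffix and 4 with a divergent partner. Other coding genes with the TSS numbers and length range of members stood at 17.8%. Members range from 443 to 41305 bp with a median of 1097 bp, so this range does not match their typical length. Under 2000 bp, other coding genes stood at 10.3% and members at 14.3%. Complex III had 0 under each alternative, and the 6110 strongest peaks of the pooled list gave the same 13 members. Counts of 1 or 2 genes move by over 1.5 times with 1 gene, which limits every value for a single complex other than I.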

Other observations

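Genes of neighbouring pathways were described by the same promoter rule, from lists chosen with earlier results known. Of 14 genes listed for the tricarboxylic acid cycle and related enzymes, 6 had a promoter summit (42.9%, beside 19.3% of other coding genes). They were Fum1, Idh3g, mAcon1, Idh, Ogdh and kdn. The list is wider than the cycle itself, as it takes in Idh and Mdh1. Idh3g, a subunit of the NAD-dependent isocitrate dehydrogenase, had the summit at rank 437, and kdn, the citrate synthase gene, at rank 5356, so they spread from the strong to the weak end of the list. Of 9 genes for electron transport or ATP synthase proteins that have other names, 3 had one (33.3%). These were blw, the alpha subunit of ATP synthase, at rank 2910, and the cytochrome c genes Cyt-c-p at rank 385 and Cyt-c-d at rank 80. Some of these summits lay nearer to the start of another coding gene: that of Cyt-c-d was 384 bp from its own TSS and 150 bp from that of CG31808, that of mAcon1 was 159 bp from its own and 62 bp from those of CG43345 and CG43346, and that of Fum1 was the summit shared with ND-ASHI.

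Of 9 assembly factor genes outside the member set, 2 had a promoter summit (22.2%, beside 19.3% of other coding genes). They were Cox17, a copper chaperone for complex IV, at rank 1914 and CIA30, a complex I assembly factor, at rank 134. Of 16 genes for mitochondrial transport and biogenesis, 4 had one (25.0%). They were Lon, a matrix protease, at rank 99, Marf, a fusion factor, at rank 806, Ucp4A at rank 908 and porin at rank 4568. Of 7 genes for regulators of mitochondrial genes, 2 had one (28.6%). ERR, an orphan nuclear receptor, had it at rank 1628 and foxo at rank 3894, while none was found at srl, ewg, Ets97D, Myc or crc. The CIA30 summit was 112 bp from its own TSS and 108 bp from that of CG7601, the porin summit 628 bp from its own and 448 bp from that of SmydA-3, and the ERR summit 214 bp from its own and 28 bp from that of Atg18a. These lists are small, and their shares were not tested against other genes.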
